A study of Homo sapiens with 4 samples.

Results

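How far the combined knockdown of c-Myc with Bcl-2 departed from the sum of its parts was measured gene by gene in MOLM-13 cells, a human acute myeloid leukemia line that carries a KMT2A fusion. The departure of a gene is log2(double/control) minus log2(c-Myc/control) minus log2(Bcl-2/control), so that 0 means that the folds of the single knockdowns multiply in the double, 1 means that the double lay 2-fold above that product and -1 that it lay 2-fold below. It was computed on library-scaled counts, and genes averaging 50 or more counts over the 4 libraries were kept, 10739 of 24940 in the table and 10023 of them protein-coding. At the edge of that rule, C1orf21 with a mean of 50 counts was inside (departure -0.88) and SOCS3 with a mean of 49.75 was outside (-0.28).

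All 4 groups were MOLM-13 cells infected with lentiviruses that carry short hairpin RNAs, selected with puromycin or G418 and treated with doxycycline, which switches the hairpins on. They were a control hairpin (shControl, labelled negative control), a hairpin against BCL2 (sh-Bcl2), a hairpin against MYC (sh-c-Myc) and the pair of them (sh-c-Myc_sh-Bcl2, here the double knockdown or double), with 1 RNA-seq library each. The labels give 72 h of doxycycline for the protein blots that checked the knockdown, and name neither clones nor the time of the RNA harvest. The submitters' stated interest was the double knockdown beside the single ones, with mitochondria in view.

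c-Myc is a transcription factor that promotes the genes of ribosome assembly, nucleotide synthesis and cell-cycle entry, and myeloid leukemia cells that lose it often take on features of mature monocytes or granulocytes. BCL-2 sits on the outer mitochondrial membrane, where it binds pro-apoptotic relatives and restrains the release of cytochrome c. A departure from additivity is the statistical form of what geneticists call an interaction or epistasis: the effect of one perturbation differs with the other in place.

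With 1 library per group there is no replicate check on any value below, and a model with both hairpins and their interaction uses up all 4 libraries, so no test or p-value can be given. Each departure instead has a 95% interval from the 4 counts by the delta method, given after the departure, which covers counting error only and neither the spread between cultures nor PCR copies. A departure is called here when it was at least 2-fold and its interval excluded 0. The departure needs every library, and the shControl library enters it with a sign opposite to that of both single knockdowns, so an unusual value in any 1 of them yields a departure. RNA came from bulk cultures, in which fewer cells of a type and less RNA per cell cannot be told apart.

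The libraries held between 14421558 and 15691129 counts. Both targets were lower where their hairpin was present: BCL2 was at 119.7 CPM with the control hairpin, 38.7 with the Bcl-2 hairpin, 112 with the c-Myc hairpin and 44.5 with both, and MYC at 434, 364, 278 and 302 CPM. MYC mRNA was less than 2-fold below shControl in both libraries with its hairpin, and its own departure was 0.37 (0.29 to 0.45), that of BCL2 0.30 (0.12 to 0.49). Taking the libraries in the order control, Bcl-2, c-Myc and double, 19450, 19823, 21426 and 20318 genes had at least 1 count, and non-coding genes took 0.923%, 0.926%, 1.37% and 1.07% of their counts. The summed level of 9 monocyte markers in the table (of 10 sought) was 153, 261, 772 and 816 CPM in that order, and that of 5 granule genes of granulocytes 2284, 1512, 4531 and 4525 CPM. Erythroid markers summed to at most 0.595 CPM and fibroblast or epithelial markers to at most 1.28 CPM in every library, and none of the 5 T cell markers was in the table. B cell and megakaryocyte markers summed to at most 5.32 and 9.68 CPM, and NK cell markers to between 263 and 318 CPM. CPM here are counts per 1000000 of library total after scaling with TMM factors (trimmed mean of M-values) between 0.950 and 1.08; they are compared only within a gene. Where 4 CPM values of a gene follow each other without names, they stand in that same order of libraries.

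Most genes lay near additivity. The median departure over all 10739 members was 0.09, its quartiles -0.17 and 0.35, and 8100 genes (75.4%) had an absolute departure under 0.5. The median half-width of the interval was 0.24, so a departure smaller than that was typically within counting error. The interval excluded 0 in 5840 genes, 3801 above and 2039 below. A departure was called higher in 236 genes (2.2%) and lower in 270 (2.51%). The higher share of all calls was 46.6% with TMM scaling, 27.5% with scaling by total counts alone, which moved the median of all genes from 0.09 to -0.03, and 31.7% when that median was set to 0. Where additivity was taken on the linear CPM scale instead, so that differences from control add, 529 genes were called higher and 126 lower, 80.8% of them higher. On that scale a sum under 1 CPM was set to 1 CPM, as in 168 of the 10739 members. Genes well below shControl in both single knockdowns have a linear sum near or under 0, which favours a positive departure there. The plot of the double knockdown against the additive sum shows both groups on the side of the diagonal that lies nearer to the control level.

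**Figure D1:**
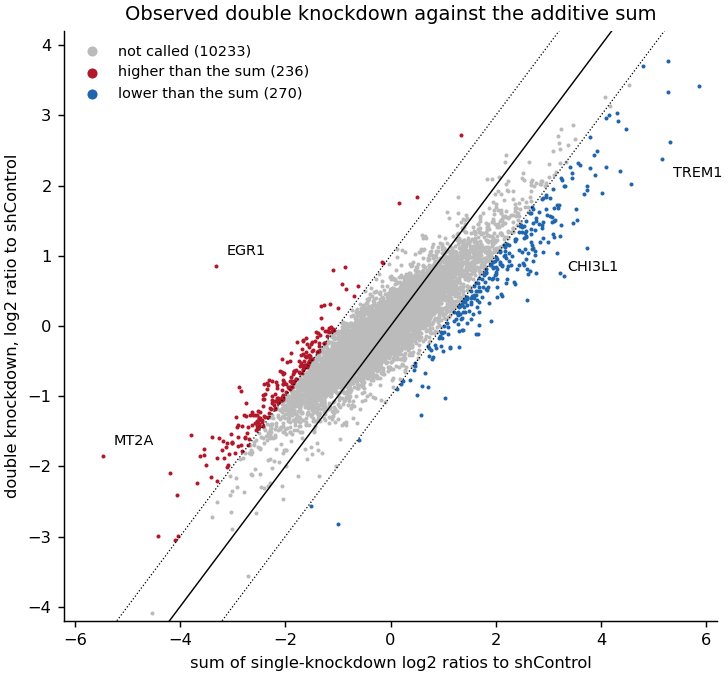
Log2 ratio of the double knockdown to shControl (vertical axis) against the sum of the log2 ratios of both single knockdowns to shControl (horizontal axis), 1 point per gene. The solid line marks additivity and the dotted lines a 2-fold departure; the 236 genes called higher lie mostly at negative sums and the 270 called lower mostly at positive sums.

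The called genes were mostly those that the c-Myc hairpin moved on its own. Of the 236 called higher, 199 were at least 2-fold lower in sh-c-Myc than in shControl and 1 was higher (10.3% of all members were lower by that rule and 7.15% higher), while 29 were lower in sh-Bcl2 and 1 higher (0.717% and 0.801% of all members). Their median log2 ratio to control was -1.61 for sh-c-Myc, -0.41 for sh-Bcl2 and -0.83 for the double, where the sum would give -2.05. The double lay nearer to shControl than sh-c-Myc did in 218 of them. Of the 270 called lower, 207 were at least 2-fold higher in sh-c-Myc and none lower, while 65 were higher in sh-Bcl2 and 1 lower. Over all members only 86 genes (0.801%) were higher in sh-Bcl2 by that rule. The median log2 ratios of the 270 were 1.51 for sh-c-Myc, 0.64 for sh-Bcl2 and 0.84 for the double, against a sum of 2.12. The double lay nearer to shControl in 235 of them. In both directions, then, the typical called gene had a level in the double that was inside the range set by the other libraries: 217 of 236 and 219 of 270. All of these ratios share shControl, and a deviating shControl value alone gives single ratios of one sign and a departure of the other. The departure also subtracts the sh-c-Myc ratio. Choosing genes by departure thus favours sh-c-Myc ratios of the opposite sign and a double nearer to shControl than sh-c-Myc, so these counts are a description.

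Few called genes had their extreme level in the double knockdown. It was above all other libraries in 15 of the genes called higher and below all of them in 41 of the genes called lower. It was also below all of them in 4 genes called higher and above all of them in 10 called lower. A view of the called genes chosen after their values were seen asked whether 1 library stood apart while the other 3 lay within 1.5-fold of each other. That library was sh-c-Myc in 97 genes, shControl in 73, sh-Bcl2 in 17 and the double in 15, and 304 genes had no such library. Neither the library apart nor the place of the double among the libraries was counted over all members. These counts therefore describe the called genes and do not set them apart from other genes. Among the 15 with the double apart were FCGR2B, TRIM2, ZNF460 and FOS. The 73 genes with shControl apart rest on that 1 library for both single-knockdown ratios and for the departure.

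EGR1, an immediate early zinc finger transcription factor, had the highest departure of all members. Its level was 46.8 CPM with the control hairpin, 65.2 with the Bcl-2 hairpin, 3.34 with the c-Myc hairpin and 84.5 with both. The sh-c-Myc library was far below the rest and the double was the highest, so that the departure was 4.17 (3.75 to 4.59), where the product of the single folds would have put the double at 4.69 CPM. The gene lies at chr5:138465490-138469315 on the plus strand (GRCh38, GENCODE 29), and the 250 bases before its start hold 2 matches to the CArG box, the element bound by serum response factor. MT2A, a metallothionein that binds zinc and other metal ions, was at 15.1, 6.41, 0.770 and 4.16 CPM, or 12 counts in sh-c-Myc. Every knockdown was below shControl, yet the double was above sh-c-Myc, and the departure was 3.62 (2.68 to 4.56). NUDT1, which hydrolyses oxidised purine nucleotides, was at 45.9, 15.3, 11.7 and 13.6 CPM. Its 3 knockdown libraries lay close together at about the same distance below shControl, and the departure was 1.802 (1.44 to 2.16).

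Of the 12 promoters examined in this way (the 6 genes per direction with the largest departures that the RefSeq table covers and that could be shown), 4 held a match to any of 4 motifs searched on both strands in the 250 bases before the start: the CArG box (in 1.16% of 35116 promoters of that table), the E-box CACGTG (6.34%), the CRE core TGACGTCA (1.65%) and the CEBP-ATF element TGATGNAA (3.14%). They are printed with the matched letters in capitals, since they are the promoters of 2 of the genes most above the sum and 2 of those most below it. All run 5′ to 3′ on the gene's strand and are RefSeq sequence of GRCh38.p14. EGR1 is chr5:138465229-138465478 with matches from -105 to -96 and from -83 to -74 relative to the start, NUDT1 is chr7:2249061-2249310 with an E-box from -99 to -94, CHI3L1 is chr1:203186705-203186954 (minus strand) with a CArG box from -75 to -66, and TREM1 is chr6:41286683-41286932 (minus strand) with a CEBP-ATF element from -117 to -110.
EGR1: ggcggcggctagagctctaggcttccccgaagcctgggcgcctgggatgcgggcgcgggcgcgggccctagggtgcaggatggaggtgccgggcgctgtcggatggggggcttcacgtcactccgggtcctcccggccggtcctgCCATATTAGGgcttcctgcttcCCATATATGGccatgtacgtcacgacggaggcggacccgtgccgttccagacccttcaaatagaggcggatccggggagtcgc
NUDT1: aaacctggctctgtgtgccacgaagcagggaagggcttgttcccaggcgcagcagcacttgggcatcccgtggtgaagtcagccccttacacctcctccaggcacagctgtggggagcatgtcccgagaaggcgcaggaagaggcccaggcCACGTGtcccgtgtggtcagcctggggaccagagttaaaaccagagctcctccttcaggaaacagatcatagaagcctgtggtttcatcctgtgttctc
CHI3L1: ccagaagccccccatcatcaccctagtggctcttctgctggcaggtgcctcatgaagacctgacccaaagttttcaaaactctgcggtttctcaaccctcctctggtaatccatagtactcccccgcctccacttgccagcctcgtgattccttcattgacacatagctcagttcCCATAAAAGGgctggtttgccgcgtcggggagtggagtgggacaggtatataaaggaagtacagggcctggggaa
TREM1: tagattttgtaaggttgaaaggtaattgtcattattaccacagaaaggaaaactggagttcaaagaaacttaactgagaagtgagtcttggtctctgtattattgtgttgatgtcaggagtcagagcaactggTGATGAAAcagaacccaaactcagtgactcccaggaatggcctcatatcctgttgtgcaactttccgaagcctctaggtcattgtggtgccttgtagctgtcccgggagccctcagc
A CArG box thus occurs in a promoter from each side of the sum. A match describes the letters only. Where RefSeq gives several starts for a gene, only the first listed was examined, so a match holds for that start and not for the others.

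The other genes with the largest positive departures were of several kinds. UNG, the glycosylase that removes uracil from DNA, was at 121 CPM with the control hairpin, 94.8 with the Bcl-2 hairpin, 20.1 with the c-Myc hairpin and 49.4 with both, with a departure of 1.64 (1.43 to 1.86), and the nucleoside transporter gene SLC29A1 was at 175, 151, 12.1 and 33.1 CPM, with a departure of 1.66 (1.41 to 1.91). Both were low in sh-c-Myc and more than 2-fold higher in the double, which still lay below shControl. CDC20, an activator of the anaphase-promoting complex, was at 138, 122, 30.7 and 79.0 CPM, with a departure of 1.54 (1.36 to 1.72), and CDCA7, a gene named for its link to the cell division cycle, was at 174, 148, 40.1 and 92.9 CPM, with a departure of 1.45 (1.29 to 1.60). KDELC2 had a like pattern, at 48.7, 42.1, 13.5 and 35.1 CPM and only sh-c-Myc apart. In MEX3A, which encodes an RNA-binding protein, and HIRIP3, a partner of the histone chaperone HIRA, both single knockdowns were instead more than 2-fold below shControl. MEX3A was at 18.9, 6.54, 2.95 and 4.41 CPM, with a departure of 2.10 (1.47 to 2.73), and HIRIP3 at 43.3, 17.2, 10.3 and 14.5 CPM, with a departure of 1.82 (1.46 to 2.18). HIRIP3 shares 29.1% of its exonic bases with INO80E on the opposite strand, and since no source states the strand setting of the counting, its reads cannot be separated from that gene's. TNFRSF19, SLC47A1, RCOR2 and the pseudogene HNRNPA1P48 complete the 15 largest, with departures of 1.71, 1.92, 2.24 and 2.002. HNRNPA1P48 is a near copy of HNRNPA1, so its count is uncertain.

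**Figure D2:**
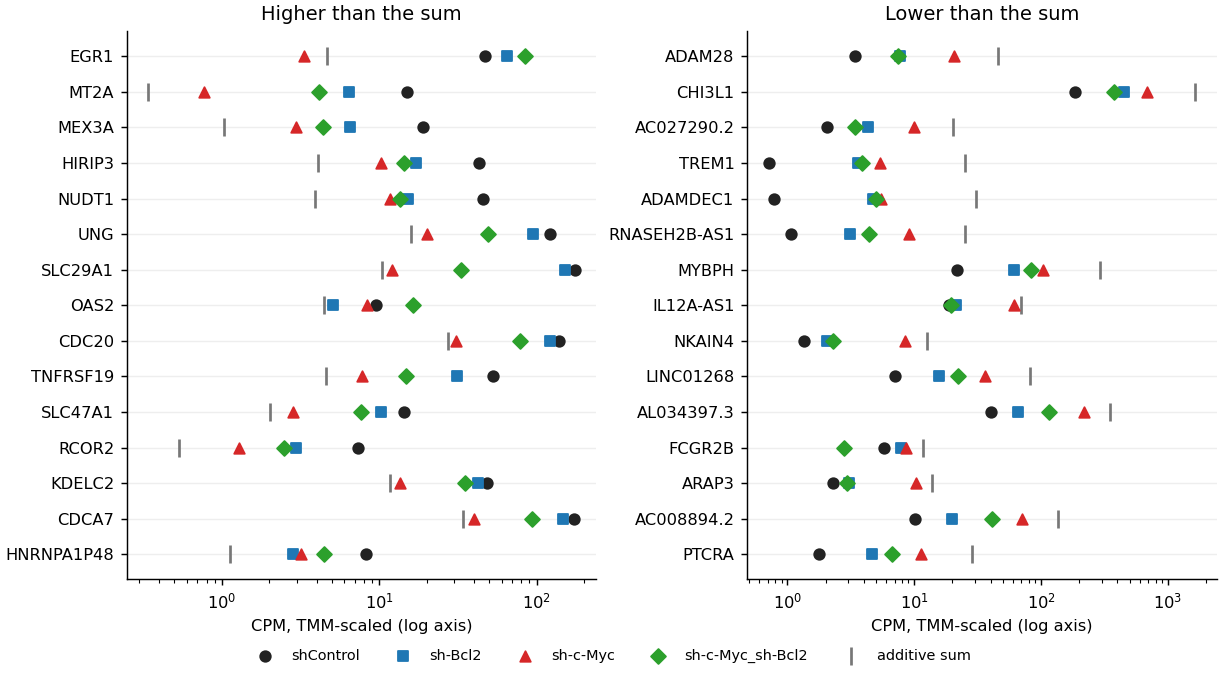
Level in each library (CPM after TMM scaling, log axis) for the 15 genes per direction with the largest departures, ranked by the end of the interval nearest to 0. The grey bar is the level at which the folds of both single knockdowns would multiply; on the left the double knockdown (green) lies to the right of that bar, by 4.17 log2 units in EGR1, and on the right panel to its left.

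OAS2, an interferon-induced synthetase of oligoadenylates, was the 1 gene besides EGR1 among these 15 whose highest level was in the double. It was at 9.51 CPM with the control hairpin, 5.09 with the Bcl-2 hairpin, 8.34 with the c-Myc hairpin and 16.5 with both, and the departure was 1.88 (1.38 to 2.39). The same position was found for FOS, an immediate early subunit of AP-1, at 68.6, 79.3, 53.2 and 129 CPM, with a departure of 1.07 (0.90 to 1.24), and for DYNC2LI1, a light intermediate chain of the dynein that works in cilia, at 9.30, 6.08, 7.44 and 14.1 CPM, with a departure of 1.53 (1.03 to 2.04). In each of these 3 genes neither single knockdown was 2-fold from shControl. SNAPC1 and PCDHA1 were in the same class, with departures of 1.47 and 1.60, but PCDHA1 shares 58.3% of its exonic bases with PCDHA6 and its count is uncertain.

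Genes of the cell cycle made up the group with the highest medians. Lists of genes by function were drawn up from general knowledge, and each is read against the median of all members, 0.09. Over all members 2.2% were called higher and 2.51% lower, and the counts of every list are to be read against these shares. Of 42 mitosis and G2/M genes, 14 were called higher (33.3%) and none lower, with a median departure of 0.86 and a range from 0.36 to 1.54. Of 44 replication and G1/S genes, 12 were called higher (27.3%) and none lower, with a median of 0.79. With scaling by total counts these calls fell to 7 and 6, where 1.35% of all members were called higher, and the medians to 0.73 and 0.67. The Bcl-2 hairpin alone left both lists near control (median log2 ratios -0.07 and -0.01), with the c-Myc hairpin alone they were at -1.24 and -1.497, and in the double they were at -0.38 and -0.73. Summed over the list, mitosis and G2/M genes were at 5505, 5569, 2519 and 4362 CPM for control, Bcl-2, c-Myc and double, and replication genes at 6723, 6609, 2676 and 4187 CPM. The double was thus the library between the high pair and the low sh-c-Myc library in both sums.

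Single genes of these lists followed the same order. CCNB1, the cyclin of mitotic entry, was at 112 CPM with the control hairpin, 116 with the Bcl-2 hairpin, 36.6 with the c-Myc hairpin and 90.4 with both, with a departure of 1.25 (1.08 to 1.42). Its kinase partner CDK1 was at 231, 207, 92.1 and 181 CPM, with a departure of 1.14 (1.02 to 1.25), and MAD2L1, of the spindle checkpoint, at 121, 108, 32.5 and 68.1 CPM, with a departure of 1.22 (1.04 to 1.41). The first 2 had sh-c-Myc as the only library apart. On the side of DNA replication, the origin-licensing gene CDC6 was at 89.9, 98.0, 23.0 and 57.4 CPM, with a departure of 1.19 (0.98 to 1.40), and UHRF1, which helps to maintain DNA methylation, at 463, 417, 88.4 and 180.3 CPM, with a departure of 1.18 (1.07 to 1.29). CCNE2, the G1/S cyclin E2, had a departure of 1.33 (1.01 to 1.65) but overlaps INTS8 on the opposite strand over 37.1% of its exonic bases. Members nearest to additivity were MKI67 (0.36), SPC25 (0.40) and BUB3 (0.51) among mitotic genes, and CCND3 (0.03), PRIM1 (0.12) and POLE (0.14) among replication genes. CCND3, a D-type cyclin, was not lower in sh-c-Myc, at 414 CPM in shControl and 483 in sh-c-Myc, and none of the mitotic members was below the median of all genes.

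**Figure D3:**
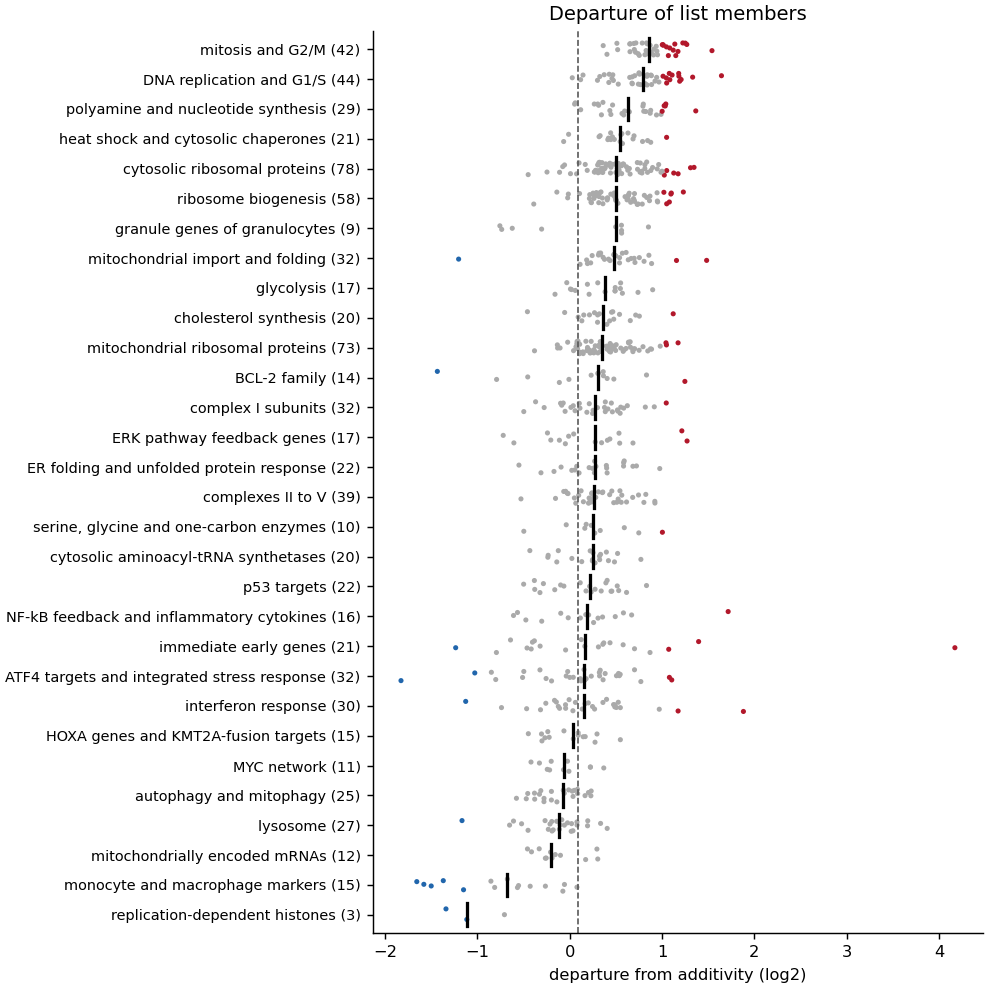
Departure from additivity (log2) of every member of 30 gene lists, with the number of members in brackets, red for genes called higher, blue for genes called lower and a black bar for the list median; the dashed line is the median of all members, 0.09. Mitosis and replication lists stand at the top with medians of 0.86 and 0.79, monocyte markers and the 3 histone genes at the bottom with -0.68 and -1.11.

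Growth genes that c-Myc is known to drive had smaller positive medians. Polyamine and nucleotide synthesis had a median of 0.63, with 5 of 29 genes called higher (17.2%), or 1 with scaling by total counts. ODC1, the first enzyme of polyamine synthesis, was at 149.6 CPM with the control hairpin, 179 with the Bcl-2 hairpin, 27.8 with the c-Myc hairpin and 85.7 with both, with a departure of 1.36 (1.19 to 1.54). RRM2, the small subunit of ribonucleotide reductase, was at 102, 148, 25.1 and 74.0 CPM, with a departure of 1.02 (0.83 to 1.21), DUT, which breaks down dUTP, had 1.03 (0.89 to 1.18), and PAICS, a purine synthesis enzyme, had 0.99 (0.88 to 1.09), just short of 2-fold. ODC1 and RRM2 were higher in sh-Bcl2 than in shControl and lowest in sh-c-Myc. In the same list DHODH (0.05) and AMD1 (0.06) were near 0.

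Ribosome biogenesis, the assembly of ribosomes in the nucleolus, had a median of 0.50 and 6 of 58 genes called higher (10.3%), or 1 with scaling by total counts. PWP2, a small-subunit processome component, was at 23.1 CPM with the control hairpin, 20.1 with the Bcl-2 hairpin, 6.35 with the c-Myc hairpin and 13.1 with both, with a departure of 1.23 (0.82 to 1.64), and MRTO4, a large-subunit assembly factor, at 115, 124, 25.3 and 55.4 CPM, with a departure of 1.02 (0.82 to 1.22). RRP9 (1.0999), of the U3 particle, and NIP7 (1.05) were also called higher. NIP7 shares 20.2% of its exonic bases with COG8 on the opposite strand, which makes its count uncertain. RRP9 was at 52.5, 40.3, 12.1 and 19.96 CPM, and in all 4 genes the double lay between sh-c-Myc and the other libraries. UTP15 (-0.02), RRS1 (-0.01) and WDR12 (0.11) were near additive, although RRS1 itself was at 53.5 CPM in shControl and 21.0 in sh-c-Myc. A strong reduction in sh-c-Myc thus did not always come with a departure.

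Cytosolic ribosomal protein genes had a median of 0.51 and 6 of 78 called higher (7.69%; 4 with scaling by total counts and 19 on the linear CPM scale), but by another arrangement of the libraries. RPL36 was at 574 CPM with the control hairpin, 242 with the Bcl-2 hairpin, 168 with the c-Myc hairpin and 180.3 with both, with a departure of 1.35 (1.25 to 1.44), and RPS25 at 558, 265, 205 and 240.5 CPM, with a departure of 1.31 (1.22 to 1.40). In both, all 3 knockdowns were low and close together, and shControl was the library apart. RPL35 (1.17), RPL11 (1.13), RPS12 (1.05) and RPS2 (1.02) were the other 4. In contrast to the cell-cycle lists, the sh-Bcl2 median was below control here (log2 ratio -0.28, against -0.80 for sh-c-Myc and -0.63 for the double). RPS27 (0.01) and RPS15 (-0.08) were near 0, and ribosomal protein genes have many processed pseudogene copies, which makes their counts uncertain.

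Chaperone genes leaned the same way. Of 21 heat shock and cytosolic chaperone genes, 1 was called higher, with a list median of 0.55. That gene was HSPA8, the constitutive HSP70, at 2334 CPM with the control hairpin, 2343 with the Bcl-2 hairpin, 795 with the c-Myc hairpin and 1650.4 with both, with a departure of 1.05 (1.01 to 1.09), with sh-c-Myc as the only library apart. HSP90AA1 (0.70), HSP90AB1 (0.69) and AHSA1 (0.84), an activator of the HSP90 ATPase, were positive but short of 2-fold, and DNAJB1 was at -0.01. For 22 genes of endoplasmic reticulum folding the median was 0.27 with none called; MANF (0.97, interval 0.65 to 1.30) came nearest, and XBP1 (0.08), SYVN1 (0.02) and SEL1L (0.05) were near 0.

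Nuclear genes for mitochondrial proteins had positive medians and mitochondrially encoded mRNAs a negative one. The medians were 0.48 for 32 genes of import and folding (2 called higher, 1 lower), 0.35 for 73 mitochondrial ribosomal proteins (3 higher), 0.28 for 32 complex I subunits (1 higher) and 0.26 for 39 genes of complexes II to V (none). On the linear CPM scale 10, 10, 4 and 8 genes of these lists were called higher, in that order, and none lower. By that scale 4.93% of all members were called higher. TIMM10, an intermembrane-space chaperone of import, was at 28.7 CPM with the control hairpin, 13.5 with the Bcl-2 hairpin, 8.15 with the c-Myc hairpin and 10.7 with both, with a departure of 1.48 (1.07 to 1.89). TIMM8B had 1.16 (0.80 to 1.52) with 31.8% exonic overlap, and PAM16 (-1.20, interval -1.74 to -0.66), an import motor subunit that shares 21.9% of its exonic bases with a readthrough gene, was the member called lower. HSPD1, the mitochondrial HSP60, was at 1156, 1039, 317 and 516 CPM, with a departure of 0.86 (0.80 to 0.92). MRPL24 (1.17), MRPL17 (1.05) and MRPL48 (1.04) were the mitochondrial ribosomal proteins called higher, and NDUFB6 (1.05) the complex I subunit.

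Among respiratory genes short of 2-fold, UQCRH was at 208 CPM with the control hairpin, 118 with the Bcl-2 hairpin, 102 with the c-Myc hairpin and 109 with both, with a departure of 0.92 (0.79 to 1.05), COX6C at 200.02, 119, 116 and 131 CPM, with a departure of 0.92 (0.80 to 1.05), and COX5B at 113, 65.1, 66.8 and 67.2 CPM, with a departure of 0.80 (0.63 to 0.97). All 3 had near-equal levels in the 3 knockdowns and a shControl library apart, as in the ribosomal protein genes RPL36 and RPS25. CYCS, which encodes cytochrome c, was at 322, 271, 147 and 218 CPM, with a departure of 0.82 (0.73 to 0.92), and had sh-c-Myc apart instead. Of the 12 mRNAs encoded in mitochondria none was called, and the median was -0.20. MT-CYB was at 2942, 3845, 4181 and 4101 CPM, with a departure of -0.41 (-0.44 to -0.39), and MT-CO1 had -0.33 (-0.34 to -0.32); MT-ND6 (0.30), MT-ND3 (0.29) and MT-CO3 (0.17) were the 3 with intervals above 0. Counts of the mitochondrial chromosome took 4.53% of the shControl library and between 5.602% and 5.80% of the 3 knockdown libraries, so shControl was the library apart in that share too.

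The genes furthest below the sum included several that encode secreted or surface proteins of myeloid cells. CHI3L1, a secreted chitinase-like glycoprotein of macrophages, whose promoter is shown above, was at 184 CPM with the control hairpin, 447 with the Bcl-2 hairpin, 679 with the c-Myc hairpin and 378 with both. Both single knockdowns were above shControl and the double was below both of them, with a departure of -2.12 (-2.20 to -2.04) against an additive level of 1646 CPM. MYBPH, a myosin-binding protein gene next to it on chromosome 1 (chr1:203167811-203175813; CHI3L1 is at chr1:203178931-203186749), was at 21.8, 60.8, 104 and 83.6 CPM, with a departure of -1.795 (-2.01 to -1.58). There the double was between the single knockdowns. ADAM28, a membrane metalloprotease, was at 3.41, 7.66, 20.5 and 7.42 CPM, with a departure of -2.62 (-3.19 to -2.05), and its relative ADAMDEC1 at 0.781, 4.76, 5.45 and 4.99 CPM, with a departure of -2.68 (-3.68 to -1.68). ADAM28 peaked in sh-c-Myc alone, whereas ADAMDEC1 had 3 near-equal knockdown libraries above a shControl level that rests on 11 counts.

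TREM1, an activating receptor of monocytes and neutrophils, had the lowest departure, -2.77 (-3.84 to -1.71), from 0.710 CPM with the control hairpin, 3.63 with the Bcl-2 hairpin, 5.32 with the c-Myc hairpin and 3.84 with both. Its shControl level rests on 10 counts, and shControl was the library apart. FCGR2B, the inhibitory Fc receptor, had a different order, at 5.75, 7.93, 8.59 and 2.81 CPM, with a departure of -2.06 (-2.70 to -1.42). Its double was the lowest library, below shControl, while both single knockdowns were slightly above. PTCRA, the pre-T-cell receptor alpha chain, was at 1.77, 4.62, 11.4 and 6.72 CPM, with a departure of -2.12 (-2.86 to -1.38), and ARAP3, a GTPase-activating protein, at 2.27, 3.04, 10.4 and 2.94 CPM, with a departure of -2.22 (-3.02 to -1.42). ARAP3 was high in sh-c-Myc only. NKAIN4 was at 1.35, 2.05, 8.53 and 2.30 CPM, with a departure of -2.46 (-3.44 to -1.49), the same arrangement with a wide interval.

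Monocyte and macrophage markers in the counts numbered 29, of which 15 were members. Of these, 5 were called lower (33.3%, against 2.51% of all members) and none higher, with a list median of -0.68. A marker low in shControl could pass the count rule through a high sh-c-Myc level, which favours a negative departure. At a mean of at least 200 counts, 4 of 14 were called lower, against 0.704% of all genes kept. Over the 15 members, the medians of the log2 ratios to shControl were 0.47 for sh-Bcl2, 2.19 for sh-c-Myc and 1.45 for the double, against a sum of 2.68. The median log2 ratio of the double to sh-c-Myc was nonetheless -0.05, and the summed level of the list was 662, 883, 1737 and 1742 CPM for control, Bcl-2, c-Myc and double, so that the list as a whole was at about the same level in the double as in sh-c-Myc. S100A8, a calcium-binding alarmin, was at 4.68 CPM with the control hairpin, 12.4 with the Bcl-2 hairpin, 39.7 with the c-Myc hairpin and 33.1 with both, with a departure of -1.66 (-2.09 to -1.22), CSF1R, the M-CSF receptor, at 19.0, 35.7, 179 and 152 CPM, with a departure of -1.15 (-1.38 to -0.92), and ITGAX, the integrin CD11c, at 28.96, 35.7, 151 and 62.1 CPM, with a departure of -1.58 (-1.79 to -1.37). CD209, a C-type lectin of macrophages and dendritic cells, was at 3.05, 11.8, 30.9 and 42.0 CPM, with a departure of -1.4997 (-2.01 to -0.99), and CD86, a costimulatory ligand, at 1.99, 3.10, 9.17 and 5.50 CPM, with a departure of -1.37 (-2.14 to -0.60). The double was the highest library for CD209 but lay below sh-c-Myc for the other 4. On the linear CPM scale only 1 of the 15 was called lower, ITGAX, the list median was -0.21, and CD209 was at 0.08. CTSS (0.08), FCGR1A (-0.06) and FCGR2A (-0.07) were near additive.

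Granule genes of granulocytes had no call in either direction among 9 genes, and their departures ran from -0.76 to 0.85. CTSG, cathepsin G, was at 344 CPM with the control hairpin, 144 with the Bcl-2 hairpin, 272 with the c-Myc hairpin and 206 with both, with a departure of 0.85 (0.75 to 0.95), and ELANE, neutrophil elastase, at 350.2, 336, 887 and 1255 CPM, with a departure of 0.56 (0.50 to 0.63). RNASE2, a ribonuclease of eosinophil granules, was at 315, 529, 937 and 945 CPM, with a departure of -0.74 (-0.80 to -0.67), and MPO, myeloperoxidase, at 131, 164, 652 and 660.2 CPM, with a departure of -0.30 (-0.40 to -0.21). In MPO and RNASE2 the double lay close to sh-c-Myc. Summed over the list the level was 5853 CPM for sh-c-Myc and 5836 for the double, above 2879 in shControl and 2283 in sh-Bcl2.

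Genes changed at least 2-fold in the same direction by both hairpins were also looked at. Selecting on both ratios favours departures of the opposite sign, because both share shControl. There were 65 such genes higher in both and 29 lower in both. The 65 had a median summed log2 ratio of 3.16 and a median of 1.66 in the double; 58 were called lower and all 65 had negative departures. The 29 had a median sum of -2.88 and -1.59 in the double; 21 were called higher and all 29 had positive departures. The direction of these departures is the one that the selection favours, so the counts are given as a description.

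Of these genes, 7 of 65 and 8 of 29 were not called. SLC7A5, the large neutral amino acid transporter, was at 564 CPM with the control hairpin, 167 with the Bcl-2 hairpin, 237 with the c-Myc hairpin and 76.2 with both. It was more than 2-fold below shControl in each single knockdown, the double was the lowest library, and the departure of 0.12 (0.01 to 0.24) left it near the product of both folds. RAC3, a small GTPase, was at 28.8, 13.7, 10.9 and 5.82 CPM, with a departure of 0.17 (-0.27 to 0.60), and C2orf48 at 11.7, 5.42, 5.52 and 3.90 CPM, with a departure of 0.61 (0.01 to 1.22). Among genes higher in both, MPEG1, the macrophage perforin, was at 6.10, 12.6, 28.0 and 42.9 CPM, with a departure of -0.43 (-0.83 to -0.02), and the kinase gene LRRK2 at 1.06, 2.31, 4.68 and 6.65 CPM, with a departure of -0.59 (-1.55 to 0.37). All 5 had their extreme level in the double. CYBB, a subunit of the phagocyte NADPH oxidase, likewise peaked in the double, at 0.568, 2.91, 4.75 and 6.01 CPM, but its departure was called lower (-1.95, interval -3.10 to -0.81).

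Targets of ATF4, the factor of the integrated stress response that also controls amino acid supply, scattered in both directions. Their median was 0.16, with 2 of 32 called higher and 2 lower. CHAC1, which degrades glutathione, was at 14.3 CPM with the control hairpin, 6.74 with the Bcl-2 hairpin, 15.1 with the c-Myc hairpin and 1.98 with both; the double was far below every other library, with a departure of -1.83 (-2.46 to -1.19). JDP2, a basic leucine zipper repressor, was at 24.6, 15.9, 25.1 and 7.93 CPM, with a departure of -1.03 (-1.40 to -0.65), and SLC7A11, the cystine transporter, at 37.8, 42.5, 34.6 and 22.3 CPM, with a departure of -0.80 (-1.06 to -0.55). In JDP2 and SLC7A11, as in CHAC1, sh-c-Myc alone was at about the shControl level. PYCR1, an enzyme of proline synthesis, was called higher, at 73.2, 37.3, 16.9 and 18.6 CPM, with a departure of 1.105 (0.82 to 1.39) and 29.9% exonic overlap, as was DDIT3, which encodes CHOP (1.08, interval 0.41 to 1.75; 39.6% overlap with MARS on the opposite strand). CEBPG (-0.02), SLC38A2 (0.04) and VLDLR (0.00) were additive within the interval.

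Enzymes of serine, glycine and one-carbon metabolism were close to additive on the log2 scale, with a median of 0.25 and 1 of 10 called higher. On the linear CPM scale the median was 0.91 and 5 of 10 were called higher. That scale favours positive departures in genes low in both single knockdowns, so these values are a description. PSAT1 was at 351 CPM with the control hairpin, 238 with the Bcl-2 hairpin, 119.9 with the c-Myc hairpin and 91.7 with both, with a departure of 0.18 (0.06 to 0.30), and PHGDH, the first enzyme of serine synthesis, at 295, 191, 110.4 and 83.9 CPM, with a departure of 0.23 (0.11 to 0.36). Both had their lowest level in the double. SHMT1 was the member called higher (1.004, interval 0.75 to 1.26) and ALDH1L2, of the mitochondrial folate pathway, was at -0.50 (-0.67 to -0.33). Cytosolic aminoacyl-tRNA synthetases had the same median of 0.25 and no call among 20, and their departures ran from -0.43 to 0.77, the latter in FARSA, with intervals above 0 in 14 and below 0 in 5; EPRS was at 0.02.

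Immediate early genes showed no common shift. Their median of 0.16 was near that of all genes, with 3 of 21 called higher (EGR1, FOS and JUNB) and 1 lower (SGK1). JUNB, a subunit of AP-1, was at 113 CPM with the control hairpin, 65.1 with the Bcl-2 hairpin, 47.2 with the c-Myc hairpin and 71.6 with both, with a departure of 1.40 (1.22 to 1.57), and SGK1, a serum- and glucocorticoid-inducible kinase, at 2.34, 8.06, 8.21 and 11.9 CPM, with a departure of -1.23 (-1.87 to -0.60). KLF10 was additive at 39.9, 77.03, 42.3 and 79.1 CPM, with a departure of -0.04: it was high in the 2 libraries with the Bcl-2 hairpin. Among 17 feedback genes of the ERK pathway the median was 0.28 and 2 were called higher, CCND1 (cyclin D1) at 10.1, 7.73, 1.99 and 3.71 CPM, with a departure of 1.27 (0.55 to 1.99), and the phosphatase gene DUSP1 at 9.44, 8.52, 4.10 and 8.64 CPM, with a departure of 1.21 (0.66 to 1.77). DUSP6, a phosphatase of ERK, was at 47.6, 43.5, 51.7 and 68.8 CPM, with a departure of 0.54 (0.34 to 0.74), while ETV5 (0.04), SPRED1 (-0.01) and DUSP4 (-0.05) were near 0.

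Inflammatory and interferon genes included single strong departures in lists whose medians were near that of all genes. CXCL8, the chemokine interleukin-8, was the 1 of 16 genes of NF-kB feedback and inflammatory cytokines called higher (list median 0.19). It was at 11.9 CPM with the control hairpin, 26.2 with the Bcl-2 hairpin, 2.95 with the c-Myc hairpin and 21.4 with both, with a departure of 1.72 (1.20 to 2.23). TNF had the same order, at 10.1, 38.1, 3.08 and 18.5 CPM, with a departure of 0.67 (0.16 to 1.18), with sh-Bcl2 highest and sh-c-Myc lowest. IL1B (-0.02) and NFKB1 (0.11) were near 0. Of 30 interferon response genes 2 were called higher, OAS2 and HERC5, and 1 lower, RSAD2, with a list median of 0.15. HERC5, an ISG15 ligase, was at 31.8, 23.8, 17.8 and 30.2 CPM, with a departure of 1.17 (0.88 to 1.47), and RSAD2, an antiviral radical SAM enzyme, at 3.19, 7.66, 11.4 and 12.5 CPM, with a departure of -1.13 (-1.70 to -0.55). The genes STAT2 (-0.04), MX2 (-0.01) and IFIT2 (0.03) were additive within the interval.

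In the BCL-2 family, 1 of 14 genes was called higher and 1 lower, with a median of 0.31. BIK, a BH3-only killer, was at 55.9 CPM with the control hairpin, 34.7 with the Bcl-2 hairpin, 34.1 with the c-Myc hairpin and 50.3 with both, with a departure of 1.25 (1.02 to 1.47): both single knockdowns were below shControl and the double was near it. BCL2A1, an anti-apoptotic member, was at 1.77, 4.89, 5.90 and 5.95 CPM, with a departure of -1.43 (-2.20 to -0.66), with 3 near-equal knockdown libraries above shControl. PMAIP1, which encodes NOXA, had 0.83 (0.58 to 1.08) and BMF, another BH3-only gene, -0.79 (-1.004 to -0.58). MCL1 was highest in the double, at 357, 357, 374 and 463 CPM, with a departure of 0.31 (0.24 to 0.39), and BCL2L11, which encodes BIM, was additive (-0.01, interval -0.20 to 0.19), as was BCL2L2 (-0.11, interval -0.41 to 0.19). No gene of 11 in the MYC network was called (median -0.07; MXD1 -0.42, interval -0.65 to -0.19, MLX -0.02), nor any of 22 p53 targets (median 0.22; CDKN1A -0.10, MDM2 -0.50).

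Other metabolic and organelle lists held few called genes. Glycolysis had a median of 0.38 with none of 17 called; LDHA was at 1004 CPM with the control hairpin, 993 with the Bcl-2 hairpin, 297 with the c-Myc hairpin and 491 with both, with a departure of 0.74 (0.68 to 0.80), and PKM was additive (0.02, interval -0.03 to 0.07). Of 20 cholesterol synthesis genes (median 0.36) only PMVK was called higher (1.12, interval 0.83 to 1.42), with SREBF2 at -0.05. Lysosomal genes had a median of -0.11 and 1 of 27 called lower, HEXA (-1.17, interval -1.71 to -0.63), and autophagy genes a median of -0.07 and none of 25 called. GRN, which encodes progranulin, was at 263, 312, 685 and 594 CPM, with a departure of -0.45 (-0.53 to -0.38), and ATG16L2 at 78.4, 63.7, 276 and 172 CPM, with a departure of -0.38 (-0.52 to -0.24). The 15 HOXA genes and KMT2A-fusion targets had a median of 0.04 and no call, with HOXA9 at 0.04 (-0.16 to 0.24) and FLT3 at -0.45 (-0.51 to -0.38). Only 3 of 22 replication-dependent histone genes in the table passed the count rule, and 2 of them were called lower, HIST1H2BK (-1.11, interval -1.69 to -0.54) and HIST1H2AG (-1.34, interval -2.26 to -0.42). Summed over the 3, the level was 7.52, 10.0, 33.9 and 21.9 CPM, lowest in shControl and highest in sh-c-Myc. Passing the count rule through a high sh-c-Myc level favours a negative departure.

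The departure is also the difference between the effect of a hairpin with and without the other one. For the Bcl-2 hairpin, the log2 ratio without the c-Myc hairpin (sh-Bcl2 over shControl) and with it (double over sh-c-Myc) share no library. Across the 10739 genes, which are not independent replicates, Pearson's r between these ratios was 0.14 and Spearman's rank correlation 0.15, with SDs of 0.34 and 0.39. At least 2-fold, 86 genes were higher and 77 lower without the c-Myc hairpin (0.801% and 0.717% of all members), and 108 and 105 with it. Of the 108 and 105, 4 higher and 6 lower ones were also called without it. For the c-Myc hairpin, r was 0.80 and Spearman's rank correlation 0.78, and the SD was 0.77 without the Bcl-2 hairpin and 0.50 with it. Without it, 768 genes were called higher and 1105 lower (7.15% and 10.3% of all members), and with it 291 and 269. Of the 291 and 269, 234 higher and 223 lower ones were also called without it. The order of the c-Myc hairpin's ratios was thus similar in both backgrounds, with a smaller spread beside the Bcl-2 hairpin, and MYC mRNA itself was 278 CPM with the c-Myc hairpin alone and 302 with both. As a ratio, the log2 reduction of MYC mRNA by its hairpin was smaller by 0.37, its departure, beside the Bcl-2 hairpin. The part of that difference in MYC mRNA in the smaller spread was not tested.

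**Figure D4:**
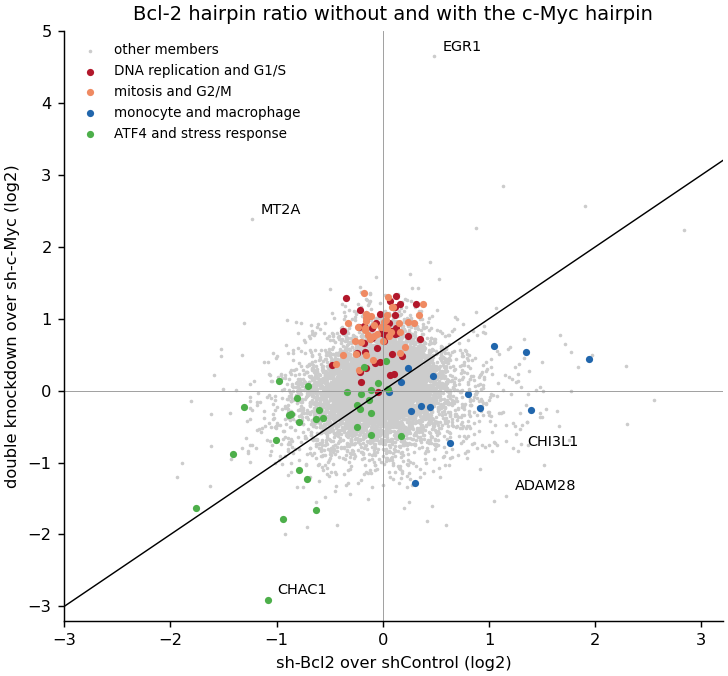
Log2 ratio of the Bcl-2 hairpin in cells with the c-Myc hairpin (double over sh-c-Myc, vertical axis) against the same hairpin without it (sh-Bcl2 over shControl, horizontal axis), 1 point per gene; the line marks equal ratios, and the vertical distance from it is the departure. Mitotic and replication genes (orange and red) gather above 0 on the vertical axis and near 0 on the horizontal one, with medians of 0.88 and 0.81 against -0.07 and -0.01.

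Genes that turned direction between backgrounds, by at least 1.5-fold each way with both intervals past a ratio of 1, numbered 59 for the Bcl-2 hairpin (0.549%) and 11 for the c-Myc hairpin (0.102%). For the Bcl-2 hairpin 41 were higher without and lower with the c-Myc hairpin, and 18 the reverse. CHI3L1 is in the first class, with log2 ratios of 1.28 and -0.84, as are ADAM28 (1.16 and -1.46) and TBX1, a T-box factor (0.92 and -1.08). MT2A is in the second, with -1.23 and 2.38, as are RCOR2 (-1.30 and 0.94) and OAS2 (-0.90 and 0.98). For the c-Myc hairpin the turning genes had low counts, such as CMTM7 (-0.75 without and 0.81 with the Bcl-2 hairpin; mean of 75 counts) and SNAPC1 (-0.78 and 0.68; mean of 85.8).

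Genes outside the main patterns showed other orders of the libraries. LPXN, a leukocyte adaptor related to paxillin, was called lower with a mean of 667 counts and neither single called; it was at 38.3 CPM with the control hairpin, 50.3 with the Bcl-2 hairpin, 57.8 with the c-Myc hairpin and 29.9 with both, with a departure of -1.35 (-1.57 to -1.12), above shControl in both singles and below it in the double. SEMG1, which encodes semenogelin, was at 5.04, 12.5, 5.26 and 5.44 CPM, with a departure of -1.26 (-1.84 to -0.67), so that only sh-Bcl2 stood apart, and CYP26B1, a retinoic acid hydroxylase, was at 1.77, 7.07, 3.34 and 4.73 CPM, with a departure of -1.47 (-2.28 to -0.67). FGFR3, a fibroblast growth factor receptor, was at 19.3, 9.58, 9.88 and 13.5 CPM, with a departure of 1.46 (1.04 to 1.87), and EGFL7, a secreted factor that hosts a microRNA, at 25.6, 9.38, 16.7 and 13.5 CPM, with a departure of 1.14 (0.76 to 1.52). The latter 3 were closer to shControl in the double than in sh-Bcl2.

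Non-coding genes were frequent among the genes below the sum. Of the 270 called lower, 100 (37.0%) were not protein-coding, against 14 of 236 called higher (5.93%) and 716 of all members (6.67%). These shares are not matched for depth: 210 of the 270 had means between 50 and 200 counts, as did 2218 of the 10739 members. A gene low in shControl could also pass the count rule through a high sh-c-Myc level, which favours a negative departure. IL12A-AS1, an antisense RNA of the IL12A locus, was at 18.7 CPM with the control hairpin, 21.5 with the Bcl-2 hairpin, 60.9 with the c-Myc hairpin and 19.6 with both, with a departure of -1.83 (-2.13 to -1.53): 3 libraries were alike and only sh-c-Myc was high. RNASEH2B-AS1 was at 1.06, 3.10, 9.04 and 4.41 CPM, with a departure of -2.54 (-3.47 to -1.62), and LINC01268 at 7.03, 15.8, 36.4 and 22.3 CPM, with a departure of -1.87 (-2.26 to -1.48). AL034397.3, which overlaps MIR223, a myeloid microRNA, was at 40.6, 66.2, 216 and 116 CPM, with a departure of -1.61 (-1.78 to -1.44). Its level in the double lay between sh-Bcl2 and sh-c-Myc. AC027290.2 had -2.58 (-3.35 to -1.81), and AC008894.2 had -1.74 (-2.06 to -1.42) but shares 49.9% of its exonic bases with RAB8A on the opposite strand. The share of counts in non-coding genes was itself highest in sh-c-Myc, and its part in these departures was not tested.

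Calls below the sum also sat at low counts. Between means of 50 and 200 counts, 87 of 2218 genes were called higher and 210 lower (13.4% called), between 200 and 1000 counts 104 and 48 of 4957 (3.07%), and at 1000 counts or more 45 and 12 of 3564 (1.60%). The median shControl level was 4.12 CPM for genes called lower and 29.3 CPM for genes called higher, against 41.1 CPM for all. Among those averaging 1000 counts or more, the genes called lower included CHI3L1, MYBPH, ITGAX, CSF1R and AL034397.3, whose values are given above. Of all 506 called genes, 91 shared at least 10% of their exonic bases with another gene. Spearman's rank correlation between GC content and the departure over all members was -0.01, a description across genes.

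**Figure D5:**
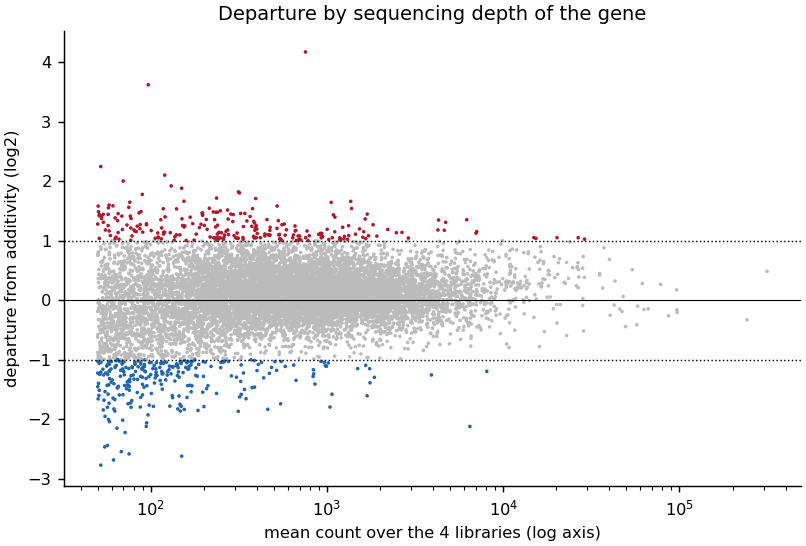
Departure from additivity (log2) against the mean count over the 4 libraries (log axis), 1 point per gene, with genes called higher in red and lower in blue and dotted lines at 2-fold. Below a mean of 200 counts 13.4% of genes were called and blue points prevail; at 1000 counts or more 1.60% were called and red points prevail.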

How the data were processed

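RNA-seq was analysed from the authors' deposited table, which holds raw counts per gene and FPKM for 1 library in each of 4 groups. Reads were processed with HISAT2 and HTSeq 0.13.5 against GRCh38, per the submitters' processing notes; the annotation release, strand setting and filters: not given in the sources used here. Deposited FPKM were used only to recover gene lengths, which came out whole (within 0.01 bases) for 100% of the values tried.

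Counts were scaled with TMM factors (edgeR 4.0.16, R 4.3.3) and given a prior of 0.5 counts per library; genes with a mean under 50 counts were left out. All 24940 identifiers matched GENCODE 29, which gave positions, types and exonic overlap. Intervals at 95% are delta-method for departures and exact conditional binomial for ratios of 2 libraries, in Python 3.11.15 with scipy 1.17.1. With 1 library per group neither edgeR nor DESeq2 was used for a test. The procedure was run on simulated counts with Poisson counting error only, the error that the interval assumes. That run cannot speak to the spread between cultures. A count of 3 corresponds to between 0.192 and 0.213 CPM.

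Members and the 30 gene lists were chosen with earlier results of these data known, so no list is independent support. Named genes are both targets, the 15 largest departures per direction by the interval end nearest to 0, up to 4 largest and 4 smallest per list, up to 5 per class of library order with at least 5 genes, 8 per hairpin that turned direction, and up to 5 nearest to 0 among genes called in both singles. DDIT3, SGK1, CD86, PAM16, MT-ND3, RPS2 and RPS12 fall outside that rule and were named after their values were seen, to complete small counts, as were the edge genes SOCS3 and C1orf21. Alternatives covered scaling, filter, prior, fold threshold, linear additivity, gene type, and length and GC trends (DESeq2 1.42.0 for size factors).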

Additional observations from a re-analysis of the deposited data

Results flagged for a closer look

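The ratio of a hairpin to its background pointed in opposite directions without and with the other hairpin, at least 1.5-fold each way, in 59 genes for the Bcl-2 hairpin and 11 for the c-Myc hairpin; the 8 with the largest smaller ratio are given for each. With 1 library per group the difference was not tested, and the departure measures it on the log2 scale. For the Bcl-2 hairpin, which was lower without and higher with the c-Myc hairpin, the departures were 3.62 for MT2A, 2.24 for RCOR2 and 1.88 for OAS2. In the opposite order they were -2.62 for ADAM28, -2.58 for AC027290.2, -2.54 for RNASEH2B-AS1, -2.12 for CHI3L1 and -2.003 for TBX1. CHI3L1 is the 1 of these with over 1000 counts on average. For the c-Myc hairpin the departures were 2.002 for HNRNPA1P48, 1.56 for CMTM7, 1.55 for UBL7-AS1 and 1.47 for SNAPC1, and in the opposite order -1.86 for LYRM4-AS1, -1.73 for CICP16, -1.60 for AL390195.2 and -1.44 for AC005912.1. All 8 of the genes for the c-Myc hairpin had means under 200 counts, and UBL7-AS1 and HNRNPA1P48 share sequence or exonic bases with other genes.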

How the results depend on the processing

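No paired analysis was possible because each group has 1 library, and no library can be left out of a departure. The calls (236 higher, 270 lower) became 145 and 383 with scaling by total counts, which kept 125 of the higher ones within the range of the other libraries, and 165 and 356 with the median departure set to 0, where mitosis and replication genes held 8 and 7 calls. They became 149 and 60 at a mean of at least 200 counts, 400 and 730 at a mean of at least 10, 1172 and 734 at 1.5-fold, and 17 and 57 at 3-fold. Additivity of linear CPM gave 529 and 126, sharing 101 of 236 and 110 of 270 calls with no change of sign. Against the larger single knockdown alone there were 127 and 101, and protein-coding genes had 170 lower. The median departure was -0.030 with total counts, so it reversed, 0.11 with DESeq2 size factors and 0.12 at a mean of at least 200 counts. Relative to all genes, the mitosis median became 0.72 at a mean of at least 200 counts and 0.87 on the linear scale, where that of ATF4 targets was 0.36, that of monocyte markers -0.29, that of one-carbon enzymes 0.83, that of ribosomal proteins 0.60 and that of mitochondrial import 0.68. Reversed were ERK feedback genes (-0.13 at a mean of at least 200 counts), immediate early genes (-0.0153 after removing length and GC trends) and CD209 (0.0838, linear). The cause of these shifts was not tested. All other medians of lists kept their direction: 169 of 174 values stayed within the allowed range for lists not led with, and 31 of 35 for the others. Single genes were less stable: of 885 values for 295 genes, 206 moved beyond the main interval. These were 130 of 295 on the linear scale and 76 of 295 with total counts. Depth limits genes under 200 counts most, where 13.4% were called.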
